A study of Mus musculus with 4 samples.

Results

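The 10 genes described here encode the 5 subunits of the transcription factor NF-kB and 5 of its IkB proteins. They were chosen by gene name from the deposited count tables, with earlier results of these data known. The subunit genes were Nfkb1, Rel and Rela (canonical subunits) and Nfkb2 and Relb (non-canonical subunits). The IkB genes were Nfkbia, Nfkbib and Nfkbie (cytoplasmic IkB proteins) and Nfkbiz and Bcl3 (nuclear IkB proteins). Together these genes are 10 of 54532 genes in the tables. All 10 were among the 11640 genes that reached a mean of 1 CPM (counts scaled to library size) over the libraries.

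NF-kB subunits act as dimers. In resting cells cytoplasmic IkB proteins bind the dimers and keep them out of the nucleus. Signals such as lipopolysaccharide (LPS), which comes from the outer membrane of bacteria and is bound by the macrophage receptor TLR4, activate the IKK kinase complex, the IkB proteins are degraded, and dimers of RelA or c-Rel with p50 enter the nucleus. In the non-canonical pathway the kinase NIK triggers the processing of p100, the product of Nfkb2, to p52, which pairs with RelB. The nuclear IkB proteins, the products of Nfkbiz and Bcl3, bind p50 or p52 on DNA and alter which targets are transcribed. Several of these genes are themselves NF-kB targets, so the system feeds back on itself.

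Polyadenylated RNA was sequenced from RAW 264.7 cells, a mouse macrophage line. The 4 libraries were Hnrnpul1-/- cells with LPS, wild-type cells with LPS, untreated Hnrnpul1-/- cells and untreated wild-type cells, with LPS given at 100 ng/ml for 10 h; every group held 1 library. Hnrnpul1, a relative of the hnRNP U gene, encodes a nuclear protein that binds RNA. The sources used here do not say how the knockout line was made or whether it is 1 clone, so genotype and clone cannot be told apart. Nor can a condition and its only library be told apart. Each value below rests on 1 library, without a replicate check, and its 95% interval covers counting error only. Reads that carry no molecular identifiers cannot be taken as independent molecules, so the interval can be too narrow even for counting error. In bulk RNA, fewer cells that express a gene and less RNA per cell cannot be told apart.

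Total counts lay between 17045432 and 17909549 per library. Hnrnpul1 stood at 21.7 CPM in LPS-treated knockout against 203 CPM in LPS-treated wild type, and at 23.1 CPM in untreated knockout against 268 CPM in untreated wild type. Tnf, an LPS response gene, stood at 1355 CPM in LPS-treated knockout and 1182 CPM in LPS-treated wild type, against 77.8 CPM in untreated knockout and 74.2 CPM in untreated wild type. Both checks thus went with the labels. Of 9 macrophage markers, 8 exceeded 1 CPM in every library, and Mertk had at most 1 read. Their summed level was 5658 CPM in LPS-treated knockout, 8492 CPM in LPS-treated wild type, 3163 CPM in untreated knockout and 3695 CPM in untreated wild type. The summed markers of T cells, B cells, fibroblasts, epithelial cells and neutrophils stayed at or under 1.37 CPM, and those of endothelial cells lay between 3.05 and 8.58 CPM.

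Promoters are shown because kB sites in the promoters of NF-kB genes are the textbook route of this feedback. Promoters (250 bases before to 50 bases after the start, RefSeq, GRCm38.p6) were at hand for 7 of the 10 genes, Nfkb2 with 3 of them, and not for Nfkb1, Relb and Nfkbiz. Both strands were searched for the kB consensus, a motif of 10 bases given here by name, and for the 9-base core GGANNTTCC, which overlaps many consensus matches. Of 32851 promoters of the same length, 4.51% held the consensus, 4.26% the core and 7.76% either. Of the 7 genes, 5 (Rel, Nfkb2, Nfkbia, Nfkbie and Bcl3) held the consensus and 3 (Nfkb2, Nfkbia and Nfkbie) the core. Rela and Nfkbib held neither. The 6 promoters below are read 5′ to 3′ on the strand of the gene, with matches to either motif in capitals. They set 4 genes with matches beside the 2 genes without. In each set the LPS ratios given further on were both large (Nfkbia, Nfkb2 and Rel with a match, Nfkbib without) and small in wild type (Nfkbie with a match, Rela without).
Nfkbia promoter, chr12:55492598-55492897, minus strand: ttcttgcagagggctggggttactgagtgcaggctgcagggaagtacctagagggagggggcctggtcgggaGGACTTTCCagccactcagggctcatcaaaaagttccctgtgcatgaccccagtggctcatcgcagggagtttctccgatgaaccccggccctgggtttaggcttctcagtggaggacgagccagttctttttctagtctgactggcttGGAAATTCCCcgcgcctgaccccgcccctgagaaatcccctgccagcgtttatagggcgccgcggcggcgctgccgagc
Nfkb2 first promoter, chr19:46304487-46304786, plus strand: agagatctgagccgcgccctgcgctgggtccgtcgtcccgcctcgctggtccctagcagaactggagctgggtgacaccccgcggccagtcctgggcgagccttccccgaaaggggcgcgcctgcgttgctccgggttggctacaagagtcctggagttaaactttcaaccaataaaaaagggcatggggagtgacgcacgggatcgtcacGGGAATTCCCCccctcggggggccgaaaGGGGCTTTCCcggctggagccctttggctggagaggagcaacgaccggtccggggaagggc
Rel promoter, chr11:23770920-23771219, minus strand: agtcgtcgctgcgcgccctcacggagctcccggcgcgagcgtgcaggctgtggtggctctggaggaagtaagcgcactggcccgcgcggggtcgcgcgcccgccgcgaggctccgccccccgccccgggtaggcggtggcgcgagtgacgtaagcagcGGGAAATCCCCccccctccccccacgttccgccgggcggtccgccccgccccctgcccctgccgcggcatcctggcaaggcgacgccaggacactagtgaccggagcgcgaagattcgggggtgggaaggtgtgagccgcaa
Nfkbie promoter, chr17:45555450-45555749, plus strand: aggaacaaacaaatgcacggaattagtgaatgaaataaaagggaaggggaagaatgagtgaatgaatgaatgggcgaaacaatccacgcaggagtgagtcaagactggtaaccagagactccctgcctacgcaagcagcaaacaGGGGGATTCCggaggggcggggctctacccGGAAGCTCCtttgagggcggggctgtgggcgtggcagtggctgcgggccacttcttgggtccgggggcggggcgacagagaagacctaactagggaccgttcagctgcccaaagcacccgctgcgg
Rela promoter, chr19:5637291-5637590, plus strand: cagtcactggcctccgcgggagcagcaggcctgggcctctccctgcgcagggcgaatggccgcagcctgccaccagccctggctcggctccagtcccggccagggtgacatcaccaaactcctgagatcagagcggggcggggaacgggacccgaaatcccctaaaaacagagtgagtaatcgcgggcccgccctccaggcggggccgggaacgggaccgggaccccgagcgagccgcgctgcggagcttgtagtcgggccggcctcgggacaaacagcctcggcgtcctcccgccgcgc
Nfkbib promoter, chr7:28766595-28766894, minus strand: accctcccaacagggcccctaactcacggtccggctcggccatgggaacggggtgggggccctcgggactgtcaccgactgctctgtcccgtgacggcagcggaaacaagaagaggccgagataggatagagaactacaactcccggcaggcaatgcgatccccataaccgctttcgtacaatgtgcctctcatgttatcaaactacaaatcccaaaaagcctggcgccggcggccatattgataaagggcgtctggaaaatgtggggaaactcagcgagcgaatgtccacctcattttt

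Nfkbia carried a core match 178 bases before the start and a match to both motifs 29 bases before it. The first Nfkb2 promoter carried overlapping consensus matches on both strands from 39 bases before the start and a further one from 11 bases before it. In Rel, overlapping consensus matches on both strands began 92 bases before the start. Nfkbie carried a consensus match 106 bases and a core match 76 bases before the start. The RefSeq start of Nfkbib lies 868 bases from the gene start in the deposited tables, so the window may not be the promoter used in these cells. A match describes letters in a window and not a bound site, and no match says only that these letters are not in this window.

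With LPS, most of the 10 genes stood far above their untreated level in both genotypes. A gene was called when normalized counts differed at least 2-fold and the counting interval excluded no change. By this rule 8 of 10 genes were called higher in knockout, where 11.6% of the 11640 genes tested were, and 7 of 10 in wild type, where 11.2% were. No gene of the 10 was called lower in either genotype, where 12% of all genes tested were in knockout and 10.1% in wild type. The median log2 ratio of the 10 genes was 2.44 in knockout, against -0.02 over all genes tested, and 1.88 in wild type, against -0.004 over all genes tested. The largest ratios were those of the nuclear IkB genes Nfkbiz and Bcl3, and the smallest those of Rela and Relb. All 10 intervals lay above 0 in both genotypes, but the one value that changed sign with another scaling was Rela in wild type, at -0.02 when libraries were scaled by their total counts. That scaling moved the median of all genes to -0.33 in knockout and -0.30 in wild type, and against these medians Rela in wild type still lay higher.

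**Figure D1:**
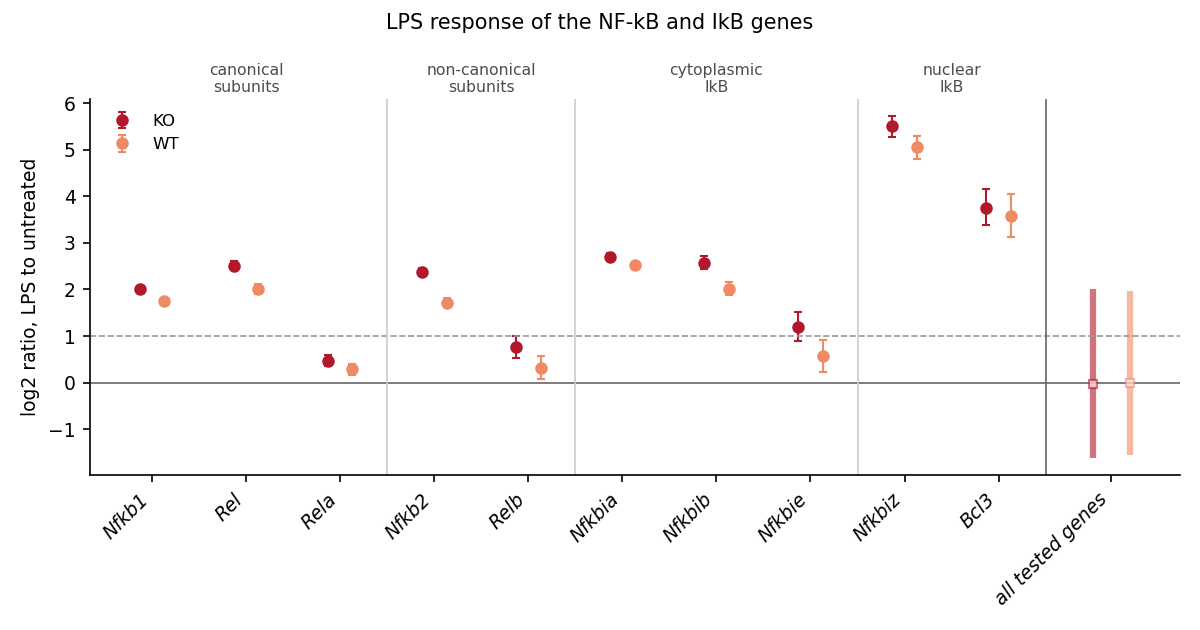
LPS-to-untreated log2 ratio of each gene in knockout (dark) and wild-type (light) cells, with 95% counting intervals; bars at the right run from the 5th to the 95th percentile of all 11640 genes tested, with the median as a square, and the dashed line marks 2-fold. Nfkbiz and Bcl3 lie highest and Rela and Relb lowest, and Rela in wild type falls to -0.02 with scaling by total counts.

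Among the canonical subunits, Nfkb1 encodes p105, the precursor of p50. Nfkb1 stood at 705 CPM in LPS-treated knockout and 587 CPM in LPS-treated wild type, against 176 CPM in untreated knockout and 175 CPM in untreated wild type. Its LPS log2 ratio was 2.0 (1.95 to 2.06) in knockout and 1.75 (1.69 to 1.8) in wild type. Both untreated libraries were alike, and both LPS libraries lay above them.

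Rel encodes c-Rel, a subunit known for its role in lymphocytes and in Il12b transcription by macrophages. The level of Rel was 280.2 CPM in LPS-treated knockout and 198 CPM in LPS-treated wild type, against 49.1 CPM in untreated knockout and 48.8 CPM in untreated wild type. Its LPS ratio of 2.51 (2.41 to 2.62) in knockout and 2.02 (1.91 to 2.13) in wild type was the largest among the subunits in both genotypes. The untreated intervals overlapped, and the LPS-treated levels were apart from them and from each other.

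Rela encodes p65, the subunit with the main transactivation domain of the canonical dimer. Rela stood at 79.5 CPM in LPS-treated knockout and 70.0 CPM in LPS-treated wild type, against 57.3 CPM in untreated knockout and 57.5 CPM in untreated wild type. Its LPS log2 ratio was 0.47 (0.36 to 0.59) in knockout and 0.28 (0.16 to 0.41) in wild type, and of the 11640 genes 2748 had a larger ratio in knockout and 3715 in wild type. Rela was called in neither. The ratio of Rel reads to Rela reads, which needs no scaling between libraries, was 3.53 in LPS-treated knockout and 2.83 in LPS-treated wild type, against 0.856 in knockout without LPS and 0.848 in wild type without LPS. Per length, Rela exceeded Rel in both untreated libraries. With LPS, Rel exceeded Rela in knockout, while their intervals overlapped in wild type.

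Of the non-canonical subunits, Nfkb2 was called in both genotypes and Relb in neither. Nfkb2 stood at 330.1 CPM in LPS-treated knockout and 182 CPM in LPS-treated wild type, against 63.8 CPM in untreated knockout and 55.3 CPM in untreated wild type. Its LPS log2 ratio was 2.37 (2.28 to 2.46) in knockout and 1.72 (1.62 to 1.82) in wild type. The LPS-treated knockout library was the highest of the 4 and the untreated wild-type library the lowest.

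Relb, with 263 to 371 reads per library, was among the least expressed of the 10 genes. Its level was 5.93 CPM per kb in LPS-treated knockout and 4.64 CPM per kb in LPS-treated wild type, against 3.5 CPM per kb in untreated knockout and 3.73 CPM per kb in untreated wild type. Its LPS log2 ratio was 0.76 (0.53 to 1.00) in knockout and 0.32 (0.07 to 0.56) in wild type, under the 2-fold rule in both. Scaled by total counts, the wild-type value was 0.02.

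Nfkbia encodes IkB-alpha, the inhibitor that is degraded and resynthesized within a response. Nfkbia stood at 650.0 CPM in LPS-treated knockout and 571 CPM in LPS-treated wild type, against 99.5 CPM in untreated knockout and 99.8 CPM in untreated wild type. The LPS log2 ratio was 2.71 (2.64 to 2.78) in knockout and 2.52 (2.44 to 2.59) in wild type. Nfkbia kept pace with its partner Rela between genotypes: the ratio of Nfkbia reads to Rela reads was 8.18 in LPS-treated knockout and 8.16 in LPS-treated wild type, against 1.74 in knockout without LPS and 1.74 in wild type without LPS. The log2 change of that ratio between knockout and wild type under LPS was 0.002 (-0.12 to 0.13).

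Nfkbib encodes IkB-beta and Nfkbie IkB-epsilon, inhibitors with a different preference for dimers and a slower turnover than IkB-alpha. Nfkbib stood at 154 CPM in LPS-treated knockout and 121 CPM in LPS-treated wild type, against 25.8 CPM in untreated knockout and 29.9 CPM in untreated wild type, and its LPS log2 ratio was 2.58 (2.44 to 2.72) in knockout and 2.02 (1.88 to 2.15) in wild type. Nfkbib was thus called in both genotypes. The annotation in the deposited tables places Sirt2 and Ccer2 on the opposite strand over 778 and 718 bases of the Nfkbib gene. Sirt2 had 58.6 CPM in LPS-treated knockout and 53.6 CPM in LPS-treated wild type, against 31.3 CPM in untreated knockout and 34.1 CPM in untreated wild type. The sources used here do not say if reads were counted by strand, so reads of the shared stretch cannot be told apart.

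Nfkbie had 254 reads in LPS-treated knockout, 159 in LPS-treated wild type, 133 in knockout without LPS and 132 in wild type without LPS, so its precision is the lowest among the cytoplasmic IkB genes. Its level was 15.8 CPM in LPS-treated knockout and 10.4 CPM in LPS-treated wild type, against 6.87 CPM in untreated knockout and 6.95 CPM in untreated wild type. Its LPS log2 ratio was 1.20 (0.89 to 1.51) in knockout and 0.58 (0.23 to 0.92) in wild type. Nfkbie was the gene called in knockout and not in wild type, and the difference of its LPS ratios between genotypes was 0.62 (0.17 to 1.07). With libraries scaled by total counts its knockout ratio was 0.89, short of 2-fold.

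Of the 10 genes, Nfkbiz and Bcl3, the nuclear IkB genes among them, had the lowest untreated levels per length and the largest LPS ratios. Nfkbiz had 6479 reads in LPS-treated knockout and 3838 in LPS-treated wild type, against 172 in knockout without LPS and 143 in wild type without LPS. Per length its level was 80.2 CPM per kb in LPS-treated knockout and 49.8 CPM per kb in LPS-treated wild type, against 1.77 CPM per kb in untreated knockout and 1.5 CPM per kb in untreated wild type. The LPS log2 ratio of Nfkbiz was 5.50 (5.28 to 5.73) in knockout and 5.05 (4.81 to 5.30) in wild type, which is 45.3-fold in knockout and 33.2-fold in wild type, and of the 11640 genes 107 had a larger ratio in knockout and 124 in wild type.

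Bcl3 had 698 reads in LPS-treated knockout and 425 in LPS-treated wild type, against 62 in knockout without LPS and 44 in wild type without LPS. The LPS log2 ratio of Bcl3 was 3.76 (3.38 to 4.16) in knockout and 3.58 (3.13 to 4.06) in wild type, and the 2 intervals overlapped. The antisense gene models Gm16174 and Gm16175 lie over Bcl3 in the annotation and had at most 6 reads in any library.

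**Figure D2:**
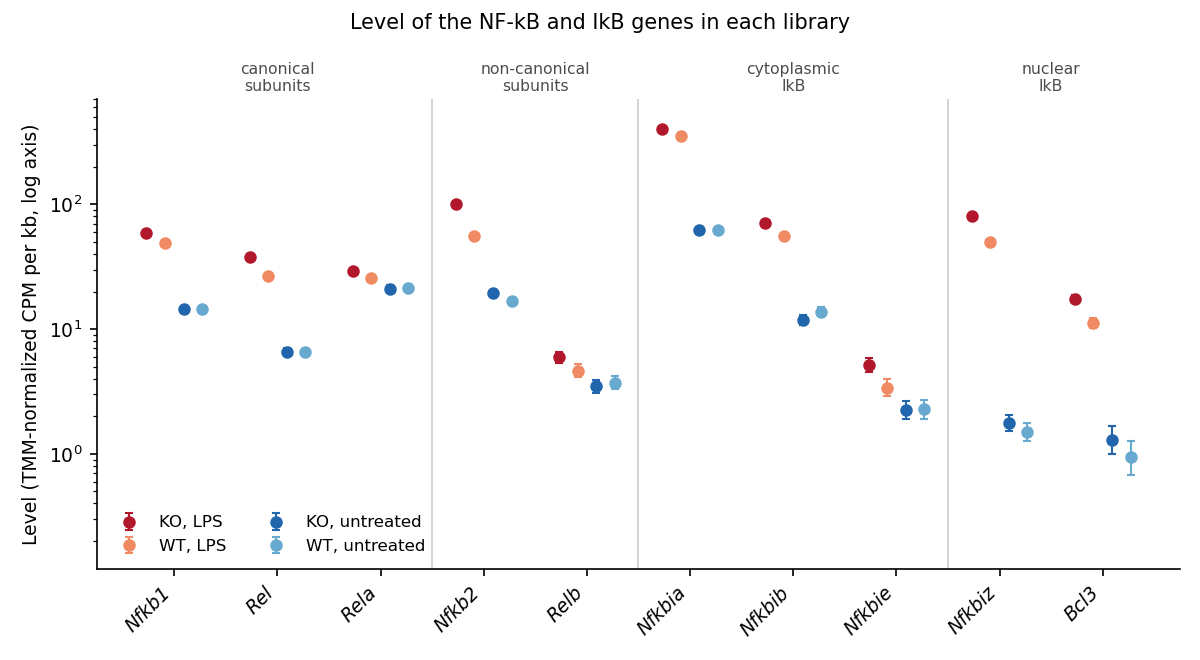
Level of each gene per kb of gene length (TMM-normalized CPM per kb, log axis) in the 4 libraries, left to right LPS-treated knockout, LPS-treated wild type, untreated knockout and untreated wild type, with 95% counting intervals. Nfkbia is the highest gene in every library, from 61.8 to 404 CPM per kb, and the LPS-treated points of Nfkbiz and Bcl3 lie furthest above their untreated ones.

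Per length, Nfkbia was the highest of the 10 genes in every library, at 404 CPM per kb in LPS-treated knockout and 355 CPM per kb in LPS-treated wild type, against 61.8 CPM per kb in untreated knockout and 62.0 CPM per kb in untreated wild type. In LPS-treated knockout the next were Nfkb2 (100.4 CPM per kb), Nfkbiz (80.2 CPM per kb), Nfkbib (70.9 CPM per kb) and Nfkb1 (58.4 CPM per kb), followed by Rel, Rela, Bcl3, Relb and Nfkbie. The intervals of Relb and Nfkbie overlapped there. In LPS-treated wild type the order was Nfkbia, Nfkbib, Nfkb2, Nfkbiz, Nfkb1, Rel, Rela, Bcl3, Relb and Nfkbie. The neighbours Nfkbib and Nfkb2, Nfkbiz and Nfkb1, and Rel and Rela had overlapping intervals in that library. Without LPS the order was the same in both genotypes: Nfkbia, Rela, Nfkb2, Nfkb1, Nfkbib, Rel, Relb, Nfkbie, Nfkbiz and Bcl3. In untreated knockout the intervals of Rela and Nfkb2, of Nfkbie and Nfkbiz, and of Nfkbiz and Bcl3 overlapped, and in untreated wild type those of Nfkb1 and Nfkbib. Nfkb2 thus held rank 2 in LPS-treated knockout and rank 3 in the other libraries. Nfkbiz held rank 3 in LPS-treated knockout and rank 4 in LPS-treated wild type, against rank 9 in both untreated libraries.

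The loss of Hnrnpul1 was next compared with and without LPS. Under LPS all 10 genes were higher in knockout than in wild type, with every counting interval above 0, and the sign of each ratio was the same under every alternative scaling and filter. The sizes were modest: no gene of the 10 reached 2-fold, where 1.66% of all genes tested were called higher and 1.83% lower. At 1.5-fold, 4 of 10 genes were called higher (Nfkb2, Nfkbiz, Bcl3 and Nfkbie), where 3.98% of all genes tested were. The intervals of Bcl3 (1.39-fold to 1.77-fold) and Nfkbie (1.24-fold to 1.87-fold) reached below 1.5-fold. The median log2 ratio of the 10 genes was 0.43, against 0.001 over all genes tested. In the same pair of libraries the macrophage markers summed to 5658 CPM in knockout against 8492 CPM in wild type. Lyz2, at 1245 CPM in knockout against 3334 CPM in wild type, made up most of this gap. In the order knockout against wild type, Csf1r (498.7 against 802.5 CPM), Cd14 (2641 against 3011 CPM) and Fcgr1 (361 against 474 CPM) were also lower in knockout. So were Spi1 (389.5 against 434.6 CPM) and Cd68 (152 against 183 CPM). Adgre1 (217 against 128 CPM) and Itgam (154 against 125 CPM) were higher in knockout. The part of these markers in the result was not tested.

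Nfkb2 had the largest genotype ratio under LPS, 0.86 (0.79 to 0.93) on the log2 scale or 1.81-fold, and 282 of the 11640 genes had a larger one. Nfkbiz followed at 0.69 (0.63 to 0.75), Bcl3 at 0.65 (0.47 to 0.83) and Nfkbie at 0.61 (0.32 to 0.90). Both nuclear IkB genes of the 10 and one of the 2 non-canonical subunits were therefore among the 4 genes past 1.5-fold. Rel stood at 0.50 (0.44 to 0.57), Relb at 0.35 (0.12 to 0.58) and Nfkbib at 0.35 (0.26 to 0.44). Nfkb1 had a ratio of 0.26 (0.22 to 0.30), Nfkbia of 0.19 (0.15 to 0.23) and Rela of 0.19 (0.07 to 0.30). Rela and Nfkbia, whose products form the classical complex of resting cells, thus had the smallest genotype ratios of the 10.

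The count at 1.5-fold was also set beside 2 narrower backgrounds chosen after the values were seen. Of the 1124 genes called higher with LPS in both genotypes, 7 of which are among the 10, 14.15% passed 1.5-fold higher in knockout under LPS, as did 3 of those 7. In the same 1124 genes 60.05% had a ratio above 0, and the median was 0.07. Of the 8799 genes with a mean of at least 10 CPM, 2.01% passed 1.5-fold higher, as did 3 of the 9 of the 10 genes among them. Nfkbie, the other gene past 1.5-fold, is in neither background.

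Without LPS none of the 10 genes was called between genotypes at 2-fold, where 1.15% of all genes tested were called higher and 0.859% lower in knockout. None was called at 1.5-fold either, where 2.71% of all genes tested were called higher and 2.17% lower. The median log2 ratio was 0.001, against 0.006 over all genes tested, and 8 of 10 intervals included 0. Nfkb2 was the one gene with an interval above 0, at 0.21 (0.09 to 0.33), and Nfkbib the one below 0, at -0.21 (-0.39 to -0.04). Nfkbiz and Bcl3 had values of 0.24 (-0.09 to 0.57) and 0.47 (-0.11 to 1.06), where 172 and 62 reads in knockout against 143 and 44 reads in wild type limit the precision. For Nfkb1, Rel, Rela and Nfkbia the intervals were narrower, within -0.13 and 0.14.

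**Figure D3:**
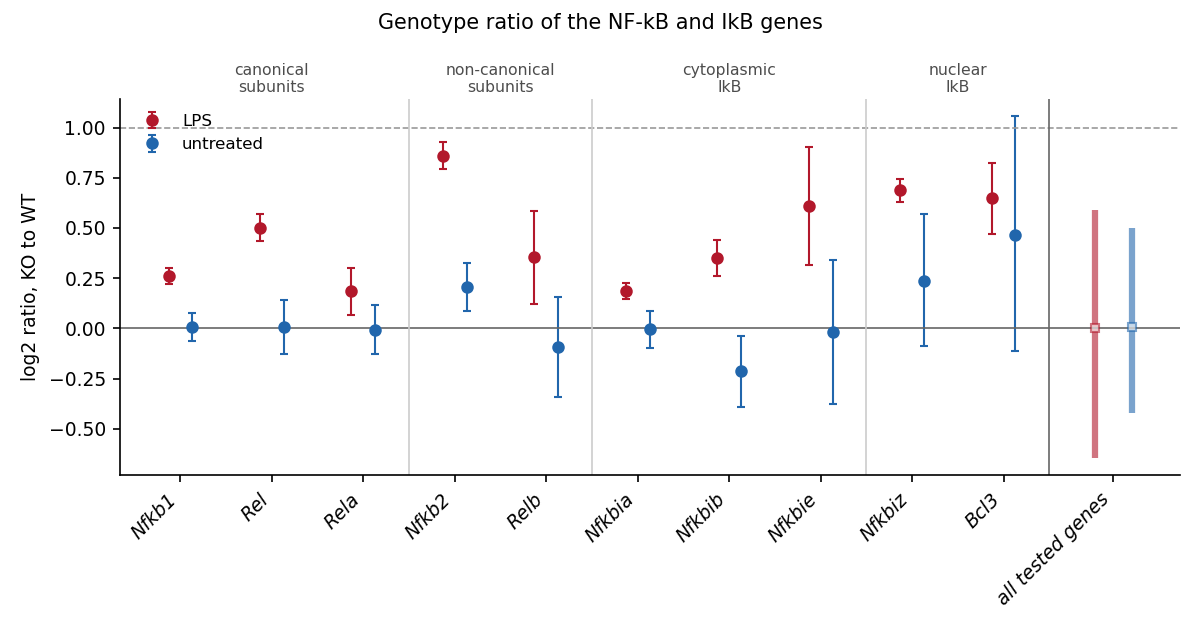
Knockout-to-wild-type log2 ratio of each gene with LPS (red) and without (blue), with 95% counting intervals; bars at the right run from the 5th to the 95th percentile of all 11640 genes tested, with the median as a square, and the dashed line marks 2-fold. All 10 red points lie above 0, led by Nfkb2 at 0.86, and 8 of 10 blue intervals include 0.

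The difference between the LPS log2 ratios of knockout and wild type was above 0 for all 10 genes, with 9 of 10 intervals above 0. It rests on the same libraries as the genotype ratios above and is no separate evidence. At 1.5-fold, 2 of 10 genes were called, where 2.63% of all genes tested were called higher. These were Nfkb2, at 0.65 (0.52 to 0.79), and Nfkbie, at 0.62 (0.17 to 1.07). Nfkbib stood at 0.56 (0.37 to 0.76) and Rel at 0.50 (0.35 to 0.64). The exception among the intervals was Bcl3, at 0.18 (-0.40 to 0.76). The median of the 10 genes was 0.45, against -0.01 over all genes tested. The LPS-treated knockout library is on top of the knockout LPS ratio and of the genotype ratio under LPS, so 1 library carries both, and no library can be left out.

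An additive model of genotype and LPS was fitted with edgeR's quasi-likelihood test over all 4 libraries. Each gene leaves 1 residual degree of freedom, which holds the interaction, and the error is drawn largely from a fit over all genes tested. The model assumes that genotype does not change the LPS response. The difference of LPS ratios had counting intervals above 0 for 9 of 10 genes, among them Nfkbiz, at 0.45 (0.12 to 0.77), and Nfkb2, at 0.65 (0.52 to 0.79). For these genes the p-values below rest on an assumption that the counts do not bear out. LPS passed an adjusted p of 0.05 for 10 of 10 genes, where 30.2% of all genes tested passed in the higher direction. The adjusted p lay between 2.46e-08 for Nfkbiz (log2 5.29) and 0.0121 for Relb (log2 0.54). Genotype passed for 1 of 10 genes, where 0.988% of all genes tested passed higher in knockout. This was Nfkbiz, with a log2 ratio of 0.55 and an adjusted p of 0.0489. Its knockout-to-wild-type log2 ratio was 0.69 (0.63 to 0.75) with LPS. Without LPS it was 0.24 (-0.09 to 0.57), an interval that includes 0. Bcl3 (log2 0.60, adjusted p = 0.0851) and Nfkb2 (log2 0.55, adjusted p = 0.106) missed the threshold. The Nfkbiz call was lost with DESeq2's Wald test (adjusted p = 0.0765) and with scaling by total counts (adjusted p = 0.0874). With no filter on low counts, Nfkbiz (adjusted p = 0.00775), Nfkb2 (adjusted p = 0.0184) and Bcl3 (adjusted p = 0.0382) all passed in edgeR.

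Shares of reads within a library need no scaling between libraries. The non-canonical subunits Nfkb2 and Relb took 24.9% (24.4 to 25.5%) of the reads of the 5 subunits in LPS-treated knockout and 19.0% (18.4 to 19.6%) in LPS-treated wild type, against 21.5% (20.6 to 22.5%) in knockout without LPS and 19.9% (18.9 to 20.9%) in wild type without LPS. LPS-treated knockout was the library with the highest non-canonical share. In wild type the share with LPS was not above the untreated one by reads, whereas per kb of gene length it was 37.3% with LPS and 32.7% untreated.

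Of the non-canonical reads, Nfkb2 gave 5315 of 5686 in LPS-treated knockout and 2794 of 3071 in LPS-treated wild type. The ratio of Nfkb2 to Nfkb1 reads, the 2 genes that encode precursors, was 0.468 in LPS-treated knockout and 0.310 in LPS-treated wild type, against 0.363 in knockout without LPS and 0.316 in wild type without LPS. Its log2 change between knockout and wild type was 0.60 (0.52 to 0.67) with LPS and 0.20 (0.06 to 0.34) without. The ratio of Relb to Rela reads was 0.290 in LPS-treated knockout and 0.258 in LPS-treated wild type, against 0.237 in knockout without LPS and 0.252 in wild type without LPS. Its genotype change under LPS was 0.17 (-0.09 to 0.42), an interval that includes 0.

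**Figure D4:**
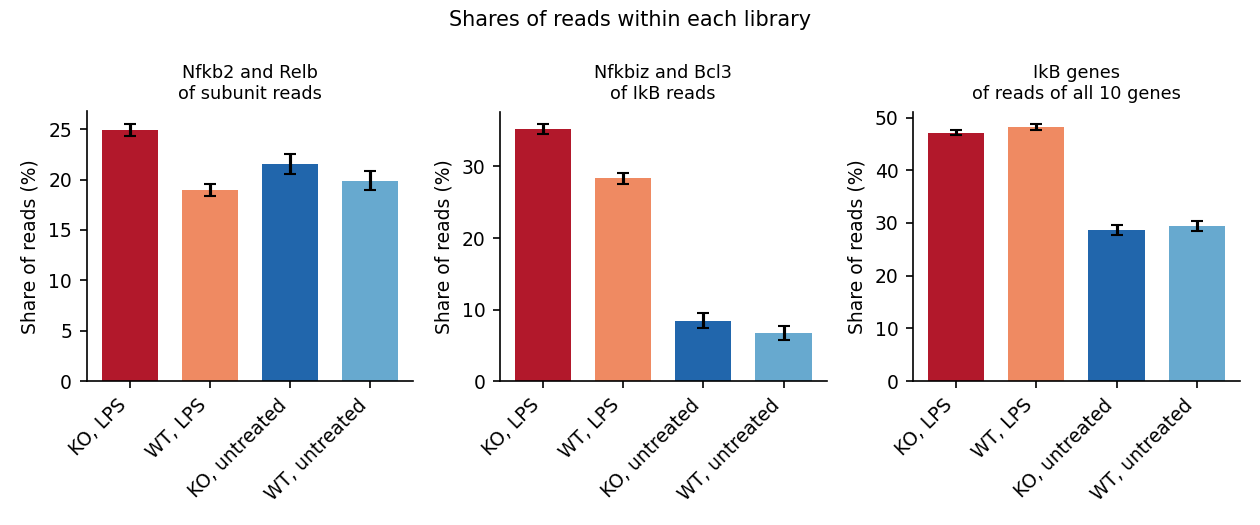
Share of reads within each library, in percent with exact 95% intervals, for Nfkb2 and Relb among subunit reads (left), Nfkbiz and Bcl3 among IkB reads (middle) and the IkB genes among reads of all 10 genes (right). LPS-treated knockout has the highest non-canonical share (24.9%) and nuclear IkB share (35.2%), while the IkB share is near 47 to 48% in both LPS libraries.

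The nuclear IkB genes took 35.2% (34.6 to 35.9%) of IkB reads in LPS-treated knockout and 28.3% (27.6 to 29.1%) in LPS-treated wild type, against 8.38% (7.37 to 9.46%) in knockout without LPS and 6.72% (5.82 to 7.72%) in wild type without LPS. The ratio of Nfkbiz to Nfkbia reads was 0.619 in LPS-treated knockout and 0.438 in LPS-treated wild type, against 0.0892 in knockout without LPS and 0.0754 in wild type without LPS. Nuclear IkB reads thus formed a larger share with LPS in both genotypes, and under LPS a larger one in knockout.

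The share of the IkB genes, cytoplasmic and nuclear, differed less between genotypes than the nuclear share of IkB reads. Under LPS its cytoplasmic and nuclear parts went opposite ways. Cytoplasmic IkB genes gave 13197 of 43199 reads of the 10 genes in LPS-treated knockout and 10778 of 31238 in LPS-treated wild type. That share was smaller in knockout. Nuclear IkB genes gave 7177 of these reads in LPS-treated knockout and 4263 in LPS-treated wild type, a larger share in knockout. IkB reads were 47.2% (46.7 to 47.6%) of the reads of all 10 genes in LPS-treated knockout and 48.2% (47.6 to 48.7%) in LPS-treated wild type, against 28.6% (27.7 to 29.5%) in knockout without LPS and 29.4% (28.5 to 30.4%) in wild type without LPS. The 10 genes together took 0.241% of all reads in LPS-treated knockout and 0.183% in LPS-treated wild type, against 0.0562% in knockout without LPS and 0.0551% in wild type without LPS.

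**Figure D5:**
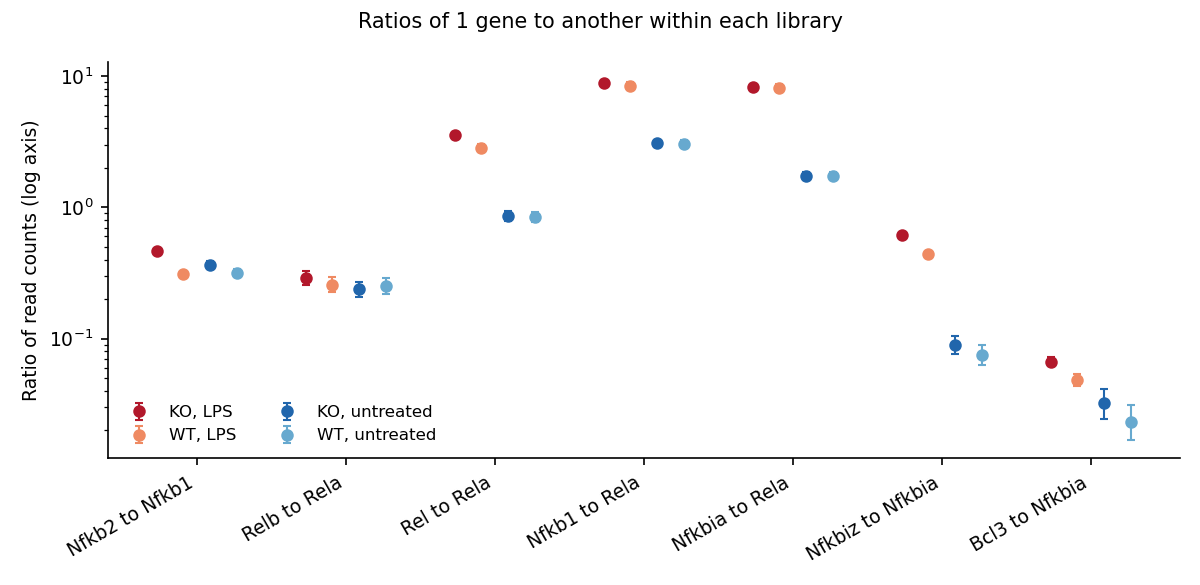
Ratio of the reads of one gene to those of another within each library (log axis, exact 95% intervals), left to right LPS-treated knockout, LPS-treated wild type, untreated knockout and untreated wild type. Nfkbia to Rela is alike in both genotypes (8.18 and 8.16 with LPS), while Nfkb2 to Nfkb1 is highest in LPS-treated knockout (0.468).

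Genes around the 10 in the same pathway were read from pathway lists with the 2-fold rule, to be set beside the 11.6% of all genes called higher with LPS in knockout and the 11.2% in wild type. Of 12 measured IKK and upstream kinase genes, 3 were called higher with LPS in each genotype and none lower: Ikbke (log2 3.17 in knockout and 3.06 in wild type), Map3k8 (1.42 in knockout and 1.52 in wild type) and Tbk1 (1.23 in knockout and 1.26 in wild type). The list's median LPS ratio was 0.13 in knockout and 0.20 in wild type. The genes of the IKK complex itself, Chuk and Ikbkb among them, were not called. Of 10 measured non-canonical pathway genes, 2 were called higher with LPS in each genotype, close to the share over all genes. These were the receptor Cd40 (7.95 in knockout and 8.51 in wild type) and the ubiquitin ligase Birc3 (2.0 in knockout and 1.70 in wild type). Cd40, at 0.83 CPM in untreated knockout and 0.32 CPM in untreated wild type, reached the mean of 1 CPM only through the LPS libraries. Tnfrsf11a, which encodes the receptor RANK, had the largest genotype value of that list under LPS, -0.96 (-1.08 to -0.84), just under the 2-fold rule.

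Of 13 negative regulators, 4 were called higher with LPS in each genotype: Zc3h12a (3.74 in knockout and 3.31 in wild type), Tnfaip3, which encodes the ubiquitin editor A20 (2.70 in knockout and 2.41 in wild type), Tnip1 (1.98 in knockout and 2.08 in wild type) and Tnip3 (1.56 in knockout and 1.56 in wild type). Of 6 other IkB-related genes, 1 was called, also near the share over all genes: Nfkbil1 (1.36 in knockout and 1.23 in wild type). Nfkbid, a further nuclear IkB gene outside the 10, had LPS values of 0.52 in knockout and 0.85 in wild type, and a genotype value under LPS of -0.29 (-0.42 to -0.15), opposite in sign to Nfkbiz and Bcl3. None of 5 genes of the IkB ubiquitin ligase was called, with Fbxw11 nearest at 0.995 in knockout and 0.77 in wild type.

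Of 11 TLR4 signalling genes, 5 were called higher with LPS in each genotype, among them Irak3 (2.99 in knockout and 3.27 in wild type), Irak2 (2.73 in knockout and 2.31 in wild type), Cd14 (1.97 in knockout and 2.25 in wild type) and Ticam1 (1.84 in knockout and 1.87 in wild type). None of the 57 genes in these 6 lists was called between genotypes with or without LPS, a count near the small shares of all genes called there (1.66% higher and 1.83% lower under LPS). Their median genotype ratios under LPS lay between -0.07 and 0.12, against 0.43 for the 10 genes.

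Of 19 measured NF-kB target genes, a list chosen with earlier results of these data known, 19 were called higher with LPS in knockout and 18 in wild type. Il1b, Il6, Csf3 and Lta were under 1 CPM untreated and reached the mean of 1 CPM only through the LPS libraries. The LPS calls of these genes thus carry no weight here. All 19 had a higher value in knockout than in wild type under LPS, with a median of 0.33, where 50.17% of all genes tested and 60.05% of those called higher with LPS in both genotypes had one. At 2-fold 4 of 19 passed, where 1.66% of all genes tested and 5.61% of those LPS-called genes did. These were Il6 (2.18), Lta (2.04), Cd83 (1.43) and Il1b (1.37), of which Il6, Lta and Il1b were measured only through the LPS libraries. Because the list was chosen with earlier results known, these genotype counts are a description only and no test of target genes. Cd83 was the gene not called with LPS in wild type, at 83.7 CPM in LPS-treated knockout and 31.1 CPM in LPS-treated wild type, against 28.0 CPM in untreated knockout and 22.2 CPM in untreated wild type. Without LPS none of the 19 was called between genotypes, where 1.15% of all genes tested were called higher in knockout and 0.859% lower. With shares this small, a count of 0 among 19 genes cannot tell these genes from all genes tested. Il6 and Il1b had 0 reads in both untreated libraries, and Csf3 had 1 read in each. Lta had 8 reads in knockout and 4 in wild type without LPS. Cxcl2, Ccl5, Ptgs2 and Nos2 had 22 to 40 reads per untreated library, which limits the precision.

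The genes whose pattern was most like that of 3 of the 10 were sought among 9245 protein-coding genes with a mean of at least 5 CPM, by the distance of log2 levels centred over the 4 libraries. Nearest to Nfkb2 were Grap, Irf8 and Mfhas1, at distances of 0.15, 0.17 and 0.18. Irf8 stood at 493 CPM in LPS-treated knockout and 301 CPM in LPS-treated wild type, against 93.4 CPM in untreated knockout and 92.3 CPM in untreated wild type. Nearest to Nfkbia were Cflar, Lrrc25 and Tnfaip3 at 0.03, 0.04 and 0.07, of which Tnfaip3 is also in the list of negative regulators. Nearest to Nfkbiz were Marcksl1, Slc15a3 and Ms4a6d, further away at 0.34, 0.45 and 0.50. Likeness over 4 libraries is a description only.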

How the data were processed

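Per the labels' protocols, mRNA was selected with oligo-dT beads before library construction with random priming. HISAT2 2.0.5, featureCounts 1.5.0-p3 and CASAVA 1.8 are the tools, and mm10 (GRCm38) the build, in the submitters' processing notes. The deposited counts are raw whole numbers for each gene. The deposited FPKM are counts over gene length and a constant per library, which was 0.927, 0.932, 1.16 and 1.15 times the total count in LPS-treated knockout, LPS-treated wild type, untreated knockout and untreated wild type. The authors' FPKM served only as an alternative, as log2(value + 1) and log2(value + 0.1).

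Counts of the 4 libraries were scaled with TMM factors (edgeR 4.0.16, R 4.3.3) over the 11640 genes whose mean CPM was 1 or more. A pair of libraries was compared by the log2 ratio of scaled counts with an exact conditional (Clopper-Pearson) 95% interval. A count of 0 entered as 3 counts, which is 0.186, 0.195, 0.155 and 0.158 CPM in LPS-treated knockout, LPS-treated wild type, untreated knockout and untreated wild type. The difference of LPS ratios between genotypes has a delta-method interval. Within-library shares have exact Clopper-Pearson intervals (SciPy 1.17.1). The additive model used edgeR's quasi-likelihood test with Benjamini-Hochberg adjustment over all genes tested, with DESeq2 1.42.0 as an alternative. The code for ratios and model was run on simulated counts with known fold changes. The counts for the ratios held counting error only, and those for the model no difference of LPS response between genotypes. Such a run checks the code and not how well intervals or p-values hold in these data. The 10 genes and the pathway lists were chosen with earlier results of these data known. From each list, up to 4 genes with the largest ratio in any pairwise comparison and every gene called between genotypes may be named; Nfkbid is one of these, and Chuk and Ikbkb were named beyond the rule.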

Additional observations from a re-analysis of the deposited data

Results flagged for a closer look

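Nfkbib, the gene of IkB-beta, differed between genotypes in opposite directions with and without LPS. Its knockout-to-wild-type log2 ratio was 0.35 (0.26 to 0.44) under LPS and -0.21 (-0.39 to -0.04) untreated, a difference of 0.563 (0.37 to 0.76). The intervals cover counting error only, and with 1 library per group the difference was not tested against replicates. The reads behind it were 2477 in LPS-treated knockout and 1852 in LPS-treated wild type, against 499 reads in untreated knockout and 567 reads in untreated wild type. Sirt2, on the opposite strand over 778 bases of Nfkbib, had genotype ratios of 0.13 (-0.01 to 0.26) under LPS and -0.13 (-0.29 to 0.04) untreated; its part in the Nfkbib values was not tested.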

How the results depend on the processing

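No paired analysis was possible because each group held 1 library and the labels carry no replicate numbers; for the same reason no replicate was left out. The calls were repeated with scaling by total counts or DESeq2 size factors, all genes unfiltered, or a minimum mean of 10 CPM (which leaves out Nfkbie). Other settings were only protein-coding genes, thinning to 17045432 counts, a whole interval beyond 2-fold, or the deposited FPKM. In these settings 7 or 8 genes were called with LPS in knockout, 7 in wild type and 0 in the other comparisons. For the difference of LPS ratios, 1.18% of all genes tested were called higher at 2-fold and 1.83% lower. At 1.5-fold, 9 genes were called with LPS in knockout, where 19.3% of all genes tested were called higher, and 7 in wild type, where 18.9% were. Between genotypes, 1.5-fold called 4 genes under LPS (3.98% of all genes higher), 0 untreated (2.71% higher and 2.17% lower) and 2 for the difference (2.63% higher). With the deposited FPKM plus 1, the Nfkbie genotype value under LPS was 0.49, short of 1.5-fold. Of the 80 genotype values under LPS in these settings, all 80 kept their sign. The sign changed for Rela with LPS in wild type (-0.02 with total counts) and, untreated between genotypes, for Nfkb1 and Rel with no filter and Rela and Nfkbia with total counts, each within 0.01 of 0. With LPS, total counts called 989 genes higher and 2156 lower in knockout (TMM: 1345 and 1398) and 975 higher and 1904 lower in wild type (TMM: 1309 and 1180), since they shift the median of all genes. A minimum of 10 CPM left 849 called higher with LPS in wild type. Between genotypes, 193 genes were called higher under LPS and 134 untreated, against 385 and 300 unfiltered and 43 and 27 at 10 CPM; the cause was not tested. Per kb of gene length, in LPS-treated knockout, LPS-treated wild type, untreated knockout and untreated wild type, the non-canonical share was 45.9, 37.3, 35.2 and 32.7%, the nuclear IkB share 16.9, 12.9, 3.88 and 3.03% and the IkB share 71.4, 74.7, 54.8 and 56.2%; the weight of long and short genes moves these by construction. In wild type the non-canonical share with LPS is above the untreated one per kb and not by reads. In the additive model, genotype passed for 0 of the 10 genes with DESeq2, 3 (Nfkbiz, Nfkb2 and Bcl3) with no filter and 0 with total counts. Among all genes tested, genotype passed for 223 of 11640 in edgeR, 133 of 11414 in DESeq2, 462 of 21612 with no filter and 133 of 11640 with total counts. LPS passed for 9 of the 10 genes in DESeq2, where 4968 of all 11640 genes tested passed in either direction. With total counts LPS passed for 8 of the 10 genes, where 7894 of all 11640 did. The cause of these differences was not tested.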

Other observations

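Psd, a gene on the opposite strand whose annotated end overlaps that of Nfkb2 by 4 bases, was also called higher with LPS in both genotypes. Psd stood at 40.3 CPM in LPS-treated knockout and 24.0 CPM in LPS-treated wild type, against 8.0 CPM in untreated knockout and 8.90 CPM in untreated wild type. Its LPS log2 ratio was 2.33 (2.08 to 2.60) in knockout and 1.43 (1.17 to 1.71) in wild type, and its genotype ratio under LPS was 0.75 (0.56 to 0.93). For Nfkb2 these values were 2.37 in knockout, 1.72 in wild type and 0.86 under LPS. Untreated, the genotype ratio of Psd was -0.15 (-0.48 to 0.17), while that of Nfkb2 was 0.21 (0.09 to 0.33), and Psd is not among the 3 genes nearest to Nfkb2. Psd was singled out after its values were seen.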
